A study of Mus musculus with 74 samples.

Results

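The genes described here are 40 genes of the lysosome, chosen by name: enzymes that take glycosaminoglycans apart, other lysosomal hydrolases and their helpers, membrane proteins of the organelle, and its transcriptional regulator Tfeb. All 40 of the 40 listed genes were measured, out of 18193 genes on the arrays, each by the probe set of its symbol with the highest mean over the 74 arrays. RNA was profiled in male B6C3F1 mice given fenretinide (500 mg/kg in the diet, white fat), troglitazone (1200 mg/kg by the oral route, brown fat and liver) or Elmiron (1000 mg/kg by the oral route, liver), each beside vehicle mice of the same study killed after 15 or 29 days. The 4 white fat groups held 3 mice each on day 15 and 4 each on day 29, and the other 12 of the 16 groups held 5 mice each. Fenretinide is a synthetic retinoid, troglitazone an activator of the nuclear receptor PPARγ, and Elmiron is pentosan polysulfate, a sulfated polysaccharide. The time course was set up to find when proliferative or hypoxic changes arise in tissues that develop hemangiosarcoma, a tumour of endothelial cells.

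Lysosomes are acidic compartments in which hydrolases break macromolecules down to units the cell can use again. Glycosaminoglycans such as heparan, dermatan, keratan and chondroitin sulfate are degraded there from one end of the chain, by sulfatases and glycosidases that act in sequence, and the loss of any one enzyme leads to a storage disease. In liver the resident macrophages (Kupffer cells) and the sinusoidal endothelial cells take up polysaccharides from the blood. Many lysosomal genes carry in their promoters a palindromic sequence, the CLEAR element, which the transcription factor TFEB binds.

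The promoters were searched because Tfeb is among the 40 genes and the others include known targets of its protein. RefSeq sequences of the mouse assembly GRCm38.p6 gave a window from 250 bases before to 50 bases after the start for 34 of the 40 genes, and Npc1, Ctsh, Asah1, Ctsb, Hgsnat and Galns had none. The core CACGTG, which reads the same on both strands, was found in the windows of 11 of 34 genes (32.4%), against 8.09% of 27025 genes with a window of the same length. Those 11 were Ctsa, Ctsd, Mcoln1, Lamp1, Glb1, Naglu, Gaa, Sgsh, Ctsl, Arsa and Gla. The longer palindrome TCACGTGA, which contains the core, was found in 4 of 34 (11.8%: Ctsa, Ctsd, Mcoln1 and Gla), against 1.12% of all genes. A match describes the letters in the window and is not a measured binding site. A stretch from each of 5 of these promoters is given 5′ to 3′ on the gene's own strand, upstream of the start, with each CACGTG in capitals: Ctsd, Lamp1 and Naglu because their values per mouse follow, and Ctsa and Gla as carriers of the longer palindrome. The Ctsd stretch is chr7:142387895-142387950 (minus strand), that of Ctsa chr2:164833736-164833772 (plus), that of Gla chrX:134601169-134601255 (minus), that of Lamp1 chr8:13159075-13159160 (plus) and that of Naglu chr11:101069996-101070051 (plus).
Ctsd: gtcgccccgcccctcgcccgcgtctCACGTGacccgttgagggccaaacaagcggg
Ctsa: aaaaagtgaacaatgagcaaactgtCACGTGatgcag
Gla: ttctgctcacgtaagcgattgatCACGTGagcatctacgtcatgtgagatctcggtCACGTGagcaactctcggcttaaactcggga
Lamp1: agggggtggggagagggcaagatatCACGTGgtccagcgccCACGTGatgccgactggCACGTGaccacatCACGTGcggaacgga
Naglu: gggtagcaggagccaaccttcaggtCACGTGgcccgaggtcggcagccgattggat
The Gla stretch holds 2 copies and the Lamp1 stretch 4.

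Values are log2 of the deposited intensity of a probe set, and a change is the mean of treated mice minus that of vehicle mice of the same study and day, with the standard error (SE) of a limma fit. A gene was called when its Benjamini-Hochberg adjusted p over all 18193 genes was below 0.05. The tissue labels were checked against marker genes. The mean level of 13 hepatocyte markers was 14.18 to 14.48 in the livers, and that of 8 adipocyte markers was 12.34 to 13.83 in both kinds of fat. Several libraries stood apart. The brown fat library of vehicle mouse 82 (day 29) had a mean of 7.55 over 8 brown adipocyte markers, against a brown fat median of 12.96, and a hepatocyte marker mean of 11.74. Brown fat of troglitazone mouse 95 (day 29) had a brown adipocyte mean of 8.59 and that of vehicle mouse 42 (day 15) a hepatocyte mean of 8.45. On day 29, white fat of vehicle mice 85 and 86 and of fenretinide mice 91, 93 and 95 carried brown adipocyte or hepatocyte genes: the higher of the 2 marker means was 9.66 to 12.05 in these 5 libraries and at most 8.17 in the other white fat libraries. White fat of the day-15 fenretinide mice carried epithelial genes, given beside its results. Among the livers that of Elmiron mouse 92 (day 29) had the highest adipocyte and brown adipocyte means, 8.07 and 8.31, against medians of 7.26 and 7.25.

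With Elmiron no lysosomal gene passed the test in liver. On day 15, 0 of 40 were called, as were 0 of 18193 genes (0%), while 997 of all genes and 2 of the 40 had an unadjusted limma p below 0.05. On day 29, 0 of 40 were called, against 1 of 18193 genes (0.0055%), with 1510 of all genes and 5 of the 40 below an unadjusted 0.05. The members' changes were small: 25 of 40 lay above 0 on day 15 with a median of 0.04 (all genes 48.2% above 0, median −0.01), and 37 of 40 on day 29 with a median of 0.09 (all genes 54% above 0, median 0.01). The 95% interval of the change stayed within 1.5-fold in either direction for 38 of 40 genes on day 15 and for 37 of 40 on day 29. In these bulk samples fewer cells of a type and less RNA per cell cannot be told apart.

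The day-29 count of 37 of 40 moved with the processing and with the vehicle mice used. It was 33 of 40 after quantile normalization and after median centring, and 23 of 40 when the day-29 vehicle livers of the troglitazone study stood in for the study's own. Without each array in turn it was 32 (without vehicle mouse 85) to 38 of 40, and 37 of 40 without mouse 92. On day 15 the count was 20 of 40 without Elmiron mouse 54 and 32 of 40 without Elmiron mouse 55.

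**Figure D1:**
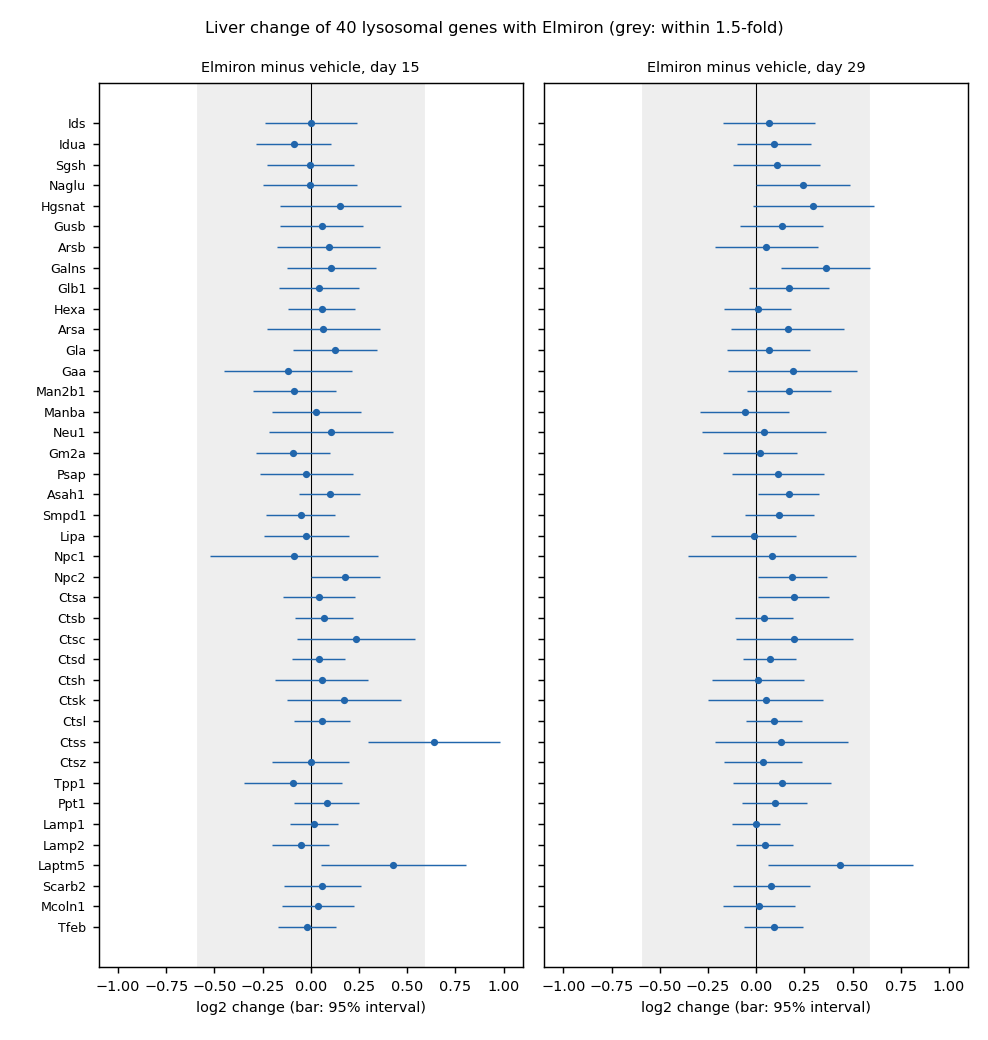
Change in liver with Elmiron (log2, treated minus vehicle, x axis) for each of the 40 genes (y axis, in groups by role) on day 15 (left) and day 29 (right), with points for the fitted change and bars for its 95% interval, n = 5 mice per group. Grey marks a change within 1.5-fold; 38 intervals on day 15 and 37 on day 29 lie wholly inside it, and 37 of 40 points on day 29 lie above 0.

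Among the 10 enzymes of glycosaminoglycan breakdown, 6 lay above 0 on day 15 (median 0.05) and 10 on day 29 (median 0.12, from 0.01 for Hexa to 0.36 for Galns). None of the 10 was called on either day. Those that act on heparan sulfate include Sgsh and Naglu, which cleave sulfate and N-acetylglucosamine, Hgsnat, which acetylates glucosamine from the membrane, and Ids, which takes a sulfate off iduronic acid.

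Naglu on day 15 was 9.14, 9.19, 9.22, 9.35 and 9.46 in the vehicle livers and 8.89, 9.11, 9.26, 9.50 and 9.59 in the Elmiron livers. On day 29 Naglu was 8.99, 9.14, 9.35, 9.36 and 9.41 with vehicle and 9.30, 9.45, 9.53, 9.59 and 9.59 with Elmiron. Elmiron livers of day 29 lay in the upper part of the range, with 4 above every vehicle liver, and the groups overlapped on both days. The changes of Naglu were −0.01 ± 0.12 (SE) and 0.24 ± 0.12 (adjusted p = 0.998 and 0.601).

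Hgsnat on day 15 was 9.92, 9.98, 10.19, 10.24 and 10.28 in vehicle livers and 10.01, 10.05, 10.33, 10.43 and 10.56 in Elmiron livers. On day 29 it was 10.08, 10.20, 10.22, 10.30 and 10.38 against 10.21, 10.29, 10.41, 10.52 and 11.24 with Elmiron. The value of 11.24 came from mouse 91, and the highest of the other Elmiron livers was 10.52. The changes were 0.15 ± 0.15 and 0.30 ± 0.15 (adjusted p = 0.998 and 0.604), with a 95% interval on day 29 from −0.02 to 0.61. Without mouse 91 the day-29 change of Hgsnat was 0.12.

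Sgsh on day 15 was 7.33, 7.44, 7.45, 7.49 and 7.69 with vehicle and 7.28, 7.41, 7.50, 7.50 and 7.70 with Elmiron. On day 29 Sgsh was 6.97, 7.35, 7.48, 7.51 and 7.66 with vehicle and 7.41, 7.42, 7.50, 7.56 and 7.61 with Elmiron. The ranges covered each other on both days, and the 95% intervals of the change ran from −0.23 to 0.22 and from −0.12 to 0.33.

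Ids, the sulfatase missing in Hunter syndrome, was 9.39, 9.57, 9.69, 9.70 and 9.82 in day-15 vehicle livers and 9.32, 9.47, 9.71, 9.82 and 9.83 in day-15 Elmiron livers. On day 29 the vehicle livers had 9.44, 9.55, 9.55, 9.87 and 9.88 and the Elmiron livers 9.53, 9.72, 9.73, 9.73 and 9.91. Means were 9.63 ± 0.22 with Elmiron and 9.63 ± 0.16 (SD, n = 5) with vehicle on day 15, so the difference was smaller than the spread between mice. The 95% intervals of the change in Ids ran from −0.24 to 0.24 and from −0.17 to 0.31.

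Idua hydrolyses the iduronic acid that Ids has freed of its sulfate, and Gusb takes off glucuronic acid. Idua was 8.67, 8.78, 8.78, 8.80 and 8.85 with vehicle and 8.50, 8.56, 8.66, 8.85 and 8.86 with Elmiron on day 15. On day 29 Idua was 8.55, 8.62, 8.67, 8.69 and 8.88 against 8.66, 8.67, 8.69, 8.78 and 9.05 with Elmiron. These groups overlapped, with changes of −0.09 ± 0.09 and 0.09 ± 0.09 (adjusted p = 0.998 and 0.780). Gusb was 9.82, 9.86, 10.03, 10.08 and 10.20 with vehicle and 9.80, 9.80, 10.11, 10.27 and 10.30 with Elmiron on day 15. On day 29 Gusb was 9.71, 9.81, 9.89, 9.97 and 10.02 against 9.91, 10.01, 10.02, 10.05 and 10.07. The Gusb values of Elmiron livers were close together on day 29, and the groups overlapped on both days. Its changes were 0.06 ± 0.10 and 0.13 ± 0.10 (adjusted p = 0.998 and 0.723).

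Arsb and Galns are sulfatases of dermatan, chondroitin or keratan sulfate. Galns had the largest change of the 10 enzymes on day 29. On that day it was 8.20, 8.32, 8.34, 8.43 and 8.50 in vehicle livers and 8.49, 8.63, 8.78, 8.85 and 8.85 in Elmiron livers. The groups overlapped by 1 mouse on each side. The change was 0.36 ± 0.11, or 1.28-fold, with a 95% interval from 0.13 to 0.59, an unadjusted p of 0.00401 and an adjusted p of 0.499 over all genes in limma. A second probe set for Galns moved by −0.03 in the same livers. On day 15 Galns was 8.34, 8.35, 8.37, 8.41 and 8.51 with vehicle and 8.23, 8.24, 8.53, 8.60 and 8.92 with Elmiron, so that Elmiron livers lay on both sides of the vehicle livers (change 0.11 ± 0.11).

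Arsb on day 15 was 9.73, 9.85, 9.92, 10.03 and 10.04 with vehicle and 9.45, 9.85, 10.06, 10.33 and 10.34 with Elmiron. On day 29 it was 9.78, 9.78, 9.83, 9.99 and 10.07 against 9.84, 9.90, 9.93, 9.96 and 10.09. Arsb groups overlapped almost wholly, with changes of 0.09 ± 0.13 and 0.05 ± 0.13 (adjusted p = 0.998 and 0.923).

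Glb1, the lysosomal β-galactosidase, was 8.78, 8.85, 8.90, 8.94 and 8.99 in day-15 vehicle livers and 8.58, 8.77, 8.95, 9.17 and 9.21 in day-15 Elmiron livers. On day 29 it was 8.68, 8.75, 8.78, 8.86 and 8.94 with vehicle and 8.88, 8.96, 8.99, 8.99 and 9.04 with Elmiron. The lowest Elmiron liver of day 29 fell below the highest vehicle liver, and the change of Glb1 was 0.17 ± 0.10 (adjusted p = 0.638), after 0.04 ± 0.10 on day 15. Hexa encodes the α subunit of β-hexosaminidase, which removes terminal hexosamines. It was 11.52, 11.77, 11.80, 11.80 and 11.88 with vehicle and 11.71, 11.73, 11.83, 11.85 and 11.92 with Elmiron on day 15. On day 29 Hexa was 11.66, 11.69, 11.75, 11.82 and 11.91 against 11.66, 11.66, 11.79, 11.81 and 11.95. Hexa groups overlapped on both days, with changes of 0.06 ± 0.08 and 0.01 ± 0.08.

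The spread between mice is part of this picture. On day 15 the SD of the Elmiron livers exceeded that of the vehicle livers for 9 of the 10 glycosaminoglycan enzymes and for 33 of the 40 genes (82.5%), against 51.3% of all genes. The median SD of the 40 genes was 0.19 with Elmiron and 0.12 with vehicle. On day 29 the SD was larger with Elmiron for 20 of the 40 genes (50%; all genes 44.7%). The spread itself was not tested.

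**Figure D2:**
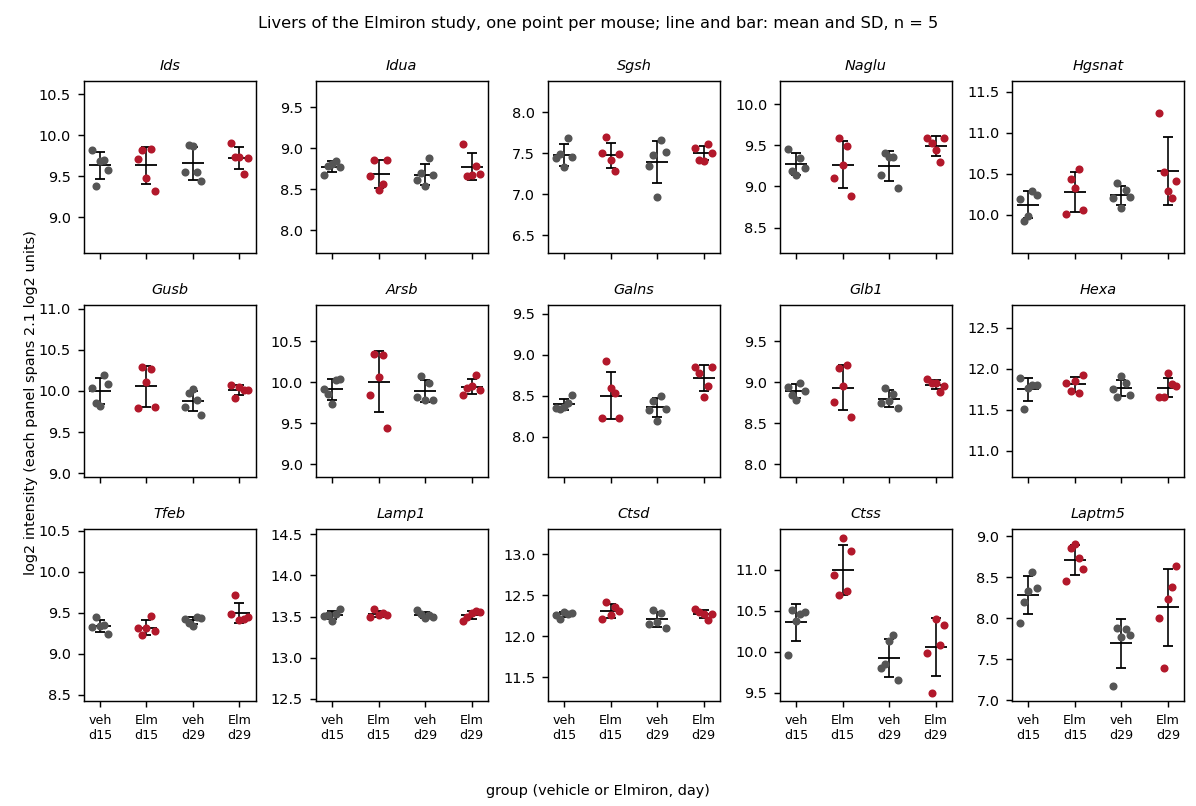
Log2 intensity (y axis, each panel spanning the same number of log2 units) in the livers of the Elmiron study for the 10 glycosaminoglycan enzymes and for Tfeb, Lamp1, Ctsd, Ctss and Laptm5, by group (x axis: vehicle in grey and Elmiron in red, days 15 and 29). Points are mice and lines with bars the mean and SD (n = 5); among these 15 genes Ctss on day 15 alone has groups that do not overlap, from 9.96 to 10.51 with vehicle and from 10.69 to 11.39 with Elmiron.

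The regulator of lysosomal genes and a common marker of the organelle had small changes. Tfeb was 9.24, 9.33, 9.34, 9.35 and 9.44 in day-15 vehicle livers and 9.22, 9.28, 9.31, 9.32 and 9.46 in day-15 Elmiron livers. On day 29 Tfeb was 9.34, 9.38, 9.42, 9.44 and 9.45 against 9.41, 9.43, 9.44, 9.48 and 9.72, the highest value being that of mouse 92. The groups overlapped, with changes of −0.02 ± 0.07 and 0.09 ± 0.07 (adjusted p = 0.998 and 0.727). Without mouse 92 the day-29 change of Tfeb was 0.036. Lamp1, an abundant glycoprotein of the lysosomal membrane, was 13.45, 13.51, 13.51, 13.53 and 13.59 with vehicle and 13.49, 13.52, 13.52, 13.54 and 13.59 with Elmiron on day 15. On day 29 Lamp1 was 13.48, 13.50, 13.51, 13.53 and 13.58 against 13.45, 13.49, 13.54, 13.55 and 13.56. Its 95% intervals ran from −0.11 to 0.14 and from −0.13 to 0.12, so a change of Lamp1 RNA beyond 1.5-fold lay outside them.

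Ctsd, an aspartic protease of the lysosome, was 12.22, 12.26, 12.28, 12.29 and 12.30 with vehicle and 12.21, 12.26, 12.31, 12.36 and 12.41 with Elmiron on day 15. On day 29 it was 12.11, 12.16, 12.17, 12.28 and 12.32 against 12.21, 12.27, 12.28, 12.29 and 12.34. Ctsd groups overlapped on both days, with changes of 0.04 ± 0.07 and 0.07 ± 0.07. The 11 genes with CACGTG in the promoter window had a median change of 0.04 on day 15 and 0.11 on day 29, and the 23 genes with a window that lacks it 0.03 and 0.09.

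Outside the glycosaminoglycan enzymes, 11 cathepsins, peptidases and a thioesterase lay above 0 in 9 cases on day 15 and in 11 on day 29, 7 genes of lipid breakdown and sterol exit in 2 and 6, 6 other sugar and sulfate enzymes in 4 and 5, and 6 membrane, channel and regulator genes in 4 and 5. None was called. The 2 genes described next were chosen after their values were seen. Ctss, a cysteine protease of antigen-presenting cells, was 9.96, 10.38, 10.47, 10.48 and 10.51 in day-15 vehicle livers and 10.69, 10.75, 10.93, 11.23 and 11.39 in day-15 Elmiron livers. The groups did not overlap, which was so for 1 of the 40 genes in that comparison and for 192 of all genes. The change of 0.64 ± 0.17, or 1.56-fold, had an adjusted p of 0.606 in limma. On day 29 Ctss was 9.66, 9.80, 9.85, 10.13 and 10.21 with vehicle and 9.51, 9.98, 10.08, 10.33 and 10.40 with Elmiron, a change of 0.13 ± 0.17 with overlapping groups. Against the day-15 vehicle livers of the troglitazone study the change of Ctss on day 15 was 0.93 with an adjusted p of 0.0445 in limma. There the treated and vehicle livers come from different studies, so study and compound cannot be told apart.

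Laptm5, a lysosomal membrane protein of blood-derived cells, was 7.94, 8.20, 8.34, 8.37 and 8.56 with vehicle and 8.45, 8.60, 8.73, 8.85 and 8.91 with Elmiron on day 15. On day 29 Laptm5 was 7.17, 7.77, 7.79, 7.86 and 7.88 against 7.40, 8.01, 8.23, 8.38 and 8.64. Elmiron livers lay towards the top on both days and the groups overlapped. The changes were 0.43 ± 0.18 and 0.44 ± 0.18 (adjusted p = 0.873 and 0.563), and the other 4 probe sets for Laptm5 moved by −0.11 to 0.29 on day 15 and by −0.28 to 0.23 on day 29. Against the day-29 vehicle livers of the troglitazone study the day-29 change of Laptm5 was −0.26.

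Markers of macrophages moved with these values on day 15. Of 28 Kupffer cell and macrophage markers 27 lay above 0 on day 15 (median change 0.44, 17 with an unadjusted p below 0.05, 0 called). Their mean level ran from 9.05 to 9.60 in Elmiron livers and from 8.72 to 9.13 in vehicle livers. On day 29, 16 of 28 lay above 0 (median 0.05), with mean levels of 8.26 to 8.80 against 8.46 to 8.85. Of 12 endothelial markers 11 lay above 0 on day 15 (median 0.19, 0 called). The part of macrophage RNA in the values of Ctss and Laptm5 was not tested.

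A further 3 genes had an unadjusted p below 0.05 on day 29 and were likewise named after their values were seen. Npc2, a soluble carrier of cholesterol in the lysosome, was 12.31, 12.49, 12.49, 12.52 and 12.67 with vehicle and 12.52, 12.61, 12.71, 12.75 and 12.82 with Elmiron. Ctsa, which protects β-galactosidase and neuraminidase, was 11.46, 11.53, 11.63, 11.65 and 11.76 against 11.66, 11.66, 11.83, 11.88 and 11.96. Asah1, the acid ceramidase, was 10.71 to 11.04 (median 10.94) with vehicle and 10.96 to 11.24 (median 11.07) with Elmiron. In each of the 3 genes the Elmiron livers sat towards the top and the groups overlapped. The changes were 0.19 ± 0.09, 0.19 ± 0.09 and 0.17 ± 0.08, each with an adjusted p of 0.590.

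The wider lysosomal pathway likewise had no called gene with Elmiron. The 5 further lists (other hydrolases and activators, membrane and transport proteins, the vacuolar proton pump, mannose 6-phosphate sorting, and TFEB relatives and autophagy receptors) held 112 measured genes, none of them among the 40. On day 15, 69 of 112 lay above 0 (all genes 48.2%) and 0 were called (median 0.03), the smallest adjusted p being 0.606 for Slc11a1, a metal transporter of macrophage phagosomes. On day 29, 66 of 112 lay above 0 (all genes 54%) and 0 were called (median 0.03), with 0.398 for the mannosidase Man2b2 as the smallest. By list, 20 of 32 other hydrolases, 16 of 27 membrane and transport proteins, 9 of 16 pump subunits, 11 of 15 sorting genes and 10 of 22 TFEB relatives and autophagy receptors lay above 0 on day 29.

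The Elmiron effect was also compared between days. For the difference of the effects, day 29 minus day 15, 0 of 40 were called (0% of all genes). The difference was −0.51 for Ctss, the lowest of the 40, and 0.31 for Gaa, the acid α-glucosidase, the highest.

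**Figure D3:**
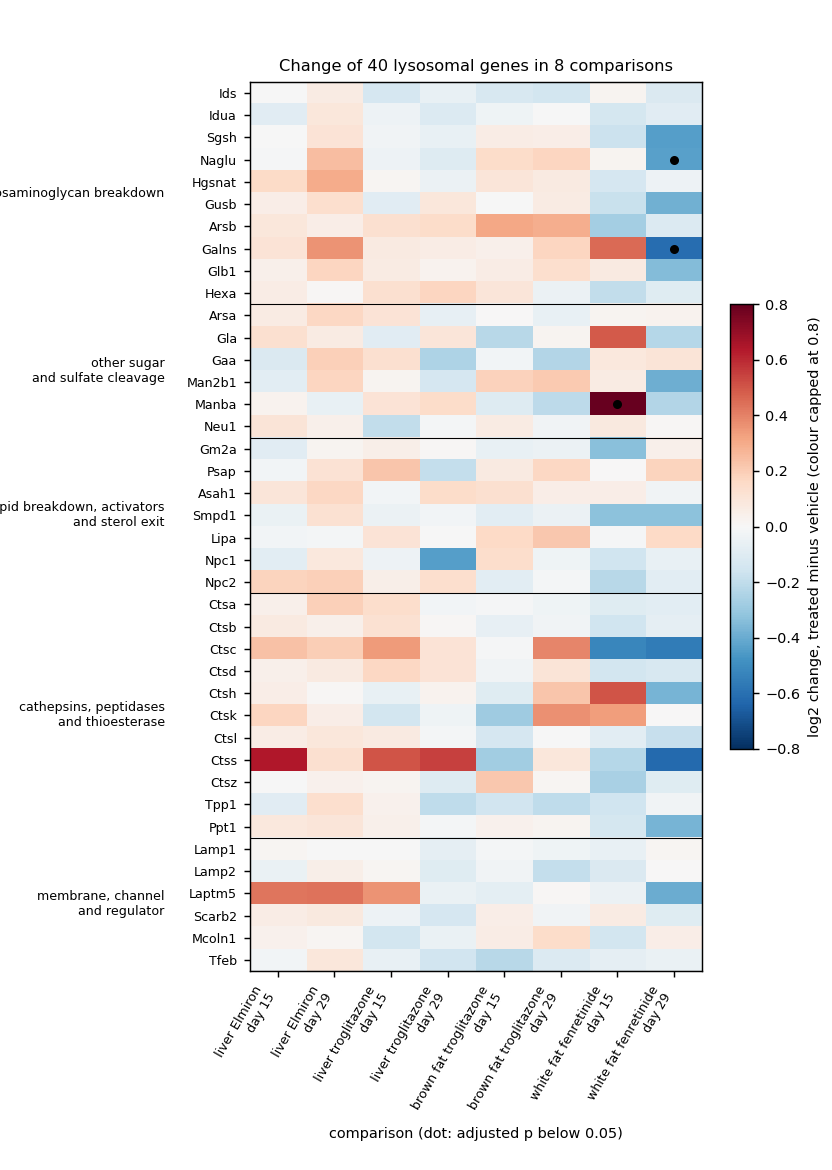
Change in log2 intensity (colour, treated minus vehicle, capped at 0.8) of the 40 genes (rows, in groups by role) in the 8 comparisons of treated with vehicle mice (columns). Dots mark adjusted p below 0.05: Manba in white fat on day 15, and Galns and Naglu in white fat on day 29, with none in brown fat or liver.

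With troglitazone no lysosomal gene was called in liver or brown fat. In liver 0 of 40 were called on day 15 (0.022% of all genes) and 0 of 40 on day 29 (0.115%). On day 15, 24 of 40 lay above 0 (median 0.03) and on day 29, 15 of 40 (median −0.02). Ctss had changes of 0.50 ± 0.25 and 0.55 ± 0.25 (adjusted p = 0.957 and 0.474), beside macrophage markers with 24 and 26 of 28 above 0 (medians 0.27 and 0.42). Npc1, which passes cholesterol out through the lysosomal membrane, had the lowest value on day 29, −0.44 ± 0.16 (adjusted p = 0.406).

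In brown fat 0 of 40 were called with troglitazone on day 15 (0.0605% of all genes) and 0 of 40 on day 29 (0.055%). There 18 of 40 lay above 0 on day 15 (median −0.01) and 21 of 40 on day 29 (median 0.01). Arsb had changes of 0.31 and 0.29 on the 2 days. Without the libraries of mice 42, 82 and 95, Man2b1, the lysosomal α-mannosidase, was called on day 29 (0.39 ± 0.08, adjusted p = 0.0320, with 152 genes called in all), against 0.21 with all libraries.

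The effects of the 2 compounds given to livers were set against each other, each relative to its own vehicle mice, with doses and studies that differ. The difference, Elmiron minus troglitazone, was called for 0 of 40 genes on day 15 (0.0055% of all genes) and for 0 of 40 on day 29 (0.0934%). On day 29, 32 of 40 differences lay above 0, with a median of 0.12 (all genes 50.5% above 0, median 0.00). Tfeb had the smallest adjusted p, with a difference of 0.24 ± 0.10 (adjusted p = 0.341), and Npc1 the largest difference, 0.52 (adjusted p = 0.409). Elmiron and troglitazone shared no vehicle mice, and study and compound cannot be told apart.

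With all libraries and each study's own vehicle mice, calls with a compound among the 40 genes were made in white fat only. On day 15 of fenretinide 1 of 40 was higher and 0 lower, or 2.5%, against 3.95% of all genes called. That gene was Manba, the lysosomal β-mannosidase. It was 8.13, 8.16 and 8.34 in vehicle mice and 8.69, 9.64 and 9.87 in fenretinide mice, so the groups did not overlap, and mouse 59 had the 8.69. With 3 mice per group, a lack of overlap was found for 13 of the 40 genes and for 5069 of all 18193. Manba rose by 1.19 ± 0.25, or 2.28-fold (adjusted p = 0.0187, limma). Of the 40 genes 15 lay above 0, with a median of −0.09 (all genes 42.3% above 0, median −0.04).

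The call for Manba depends on single arrays. It was kept without vehicle mouse 49 (1.25, adjusted p = 0.0438) and without fenretinide mouse 59 (1.54, adjusted p = 9.44e-05), and lost without vehicle mouse 48 or 50 or fenretinide mouse 57 or 58. Median centring took the median of all genes from −0.04 to −0.20 and made 9 calls among the 40, with Manba higher at 1.04 and Ctsb, Ctsc, Gm2a, Hexa, Hgsnat, Idua, Npc2 and Smpd1 lower. Under it, 23.9% of the calls over all genes were higher, against 82.8% as deposited and 63.6% after quantile normalization. The share of all genes called under median centring is not given here, so the 9 of 40 is not read against it.

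Epithelial genes moved with fenretinide on day 15. Of 11 epithelial markers 10 lay above 0 and 6 were called higher (Cdh1, Cldn7, Dsp, Krt18, Krt8 and Prom1), from 3.15 for Krt18 to 5.48 for Prom1. Their mean level was 9.44, 9.56 and 10.29 in the fenretinide mice 57, 58 and 59, against 6.46 to 7.26 in vehicle mice. The highest epithelial level and the lowest fenretinide value of Manba were both those of mouse 59. Other marker lists moved too. Of 8 adipocyte markers 0 lay above 0 and 2 were called lower. Of 12 endothelial markers 9 lay above 0 (median 0.45) and 1 was called higher. Of 11 stellate cell and fibroblast markers 6 lay above 0 (1 called higher), and of 5 erythroid markers 0 (1 called lower). The part of epithelial or other tissue in the Manba value was not tested. On that day the 5 further lists had 2 genes higher and 2 lower of 112: Ctse, an aspartic protease of epithelia and immune cells (2.98), Rragd, a GTPase of nutrient sensing at the lysosome (2.45), Naaa, an acid amidase (−0.62) and Atg7, an autophagy enzyme (−0.43).

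On day 29 of fenretinide 0 of 40 were higher and 2 lower, or 5%, against 1.34% of all genes called. Galns was 8.56, 8.59, 8.73 and 8.89 in vehicle mice and 7.90, 8.10, 8.16 and 8.16 in fenretinide mice, without overlap. It fell by 0.61 ± 0.11, or 1.53-fold (adjusted p = 0.0244, limma), while a second probe set for it moved by 0.05. Naglu was 8.69, 8.86, 8.91 and 8.91 with vehicle and 8.25, 8.34, 8.50 and 8.55 with fenretinide, again without overlap. It fell by 0.43 ± 0.08, or 1.35-fold (adjusted p = 0.0324). In this comparison the groups did not overlap for 11 of the 40 genes and for 1591 of all 18193. All 10 glycosaminoglycan enzymes lay below 0 (median −0.23), and of the 40 genes 9 lay above 0 (median −0.10, all genes −0.02).

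A further 10 genes had an unadjusted p below 0.05 on day 29, all of them with lower means in fenretinide mice. They were named after their values were seen: Ctss (−0.62), Ctsc (−0.56), Sgsh (−0.44), Laptm5 (−0.40), Man2b1 (−0.39), Gusb (−0.39), Ppt1 (−0.37), Ctsh (−0.37), Glb1 (−0.35) and Smpd1 (−0.33), with adjusted p from 0.0515 for Ppt1 to 0.204 for Ctsh. Together with Galns and Naglu they made 12 of 40 (30%), against 14.8% of all genes in either direction. Of 28 macrophage markers 9 lay above 0 (median −0.20) and 2 were lower, Folr2 (−0.70) and Lgals3 (−0.86), and their mean level was 9.21 to 9.31 with fenretinide and 9.31 to 9.55 with vehicle. Of the 112 further lysosomal genes 1 was lower, the protease Lgmn (−0.56), and 0 were higher. On that day 12 of 13 hepatocyte markers (median 0.61) and 8 of 8 brown adipocyte markers (median 1.16) lay above 0, with 0 called. Of 11 stellate cell and fibroblast markers 1 was higher, Lrat (2.14), and 3 were lower, among them Dpt (−0.91) and Col3a1 (−0.67), with 5 of 11 above 0 (median −0.14). The part of RNA of macrophages, fibroblasts and other tissues in the values of the 40 genes was not tested.

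Both day-29 calls depended on the arrays used. Galns lost its call without vehicle mouse 81 or 83 or fenretinide mouse 94, and Naglu lost it without any one of vehicle mice 83, 85 and 86 and fenretinide mice 93, 94 and 95. Without vehicle mouse 86, 5 genes were lower: Ctsc, Ctss, Galns, Man2b1 and Ppt1. The share of all genes called in that fit is not given here. Without the 5 libraries that carried brown adipocyte or hepatocyte genes, 0 of 40 were called, from 2 vehicle mice and 1 fenretinide mouse, whose spread was taken to be that of the other groups. The changes were then −0.76 for Galns and −0.52 for Naglu, with mouse 94 as the only fenretinide mouse. With mouse 94 alone left out the change of Naglu was −0.38, the smallest of the fits without a single array. Over the fits without a single array the change of Galns ran from −0.65 to −0.55 and that of Naglu from −0.48 to −0.38. The values of −0.76 and −0.52 rest on mouse 94. The part of the other tissues' genes in the changes was not tested. Fitted on the 2 groups alone, 0 of 40 were called on either day.

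The fenretinide effect on Galns differed between days. On day 15 Galns was 8.23, 8.37 and 8.47 in vehicle mice and 8.63, 8.74 and 9.05 in fenretinide mice, a change of 0.45 (adjusted p = 0.0724), the opposite of day 29. The difference of the effects, day 29 minus day 15, was −1.06 ± 0.17 (adjusted p = 0.00647), and 1 of 40 genes was called in it, against 1.33% of all genes. The call for Galns was kept without each of the 14 mice in turn. With the mean of the probe sets of each gene in place of the brightest one, 0 of 40 were called. The epithelial markers differed between days as well, with 0 of 11 differences above 0 (median −2.91) and 6 called lower. Several day-29 libraries carried brown adipocyte or hepatocyte genes. The part of other tissues in the Galns difference was not tested.

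**Figure D4:**
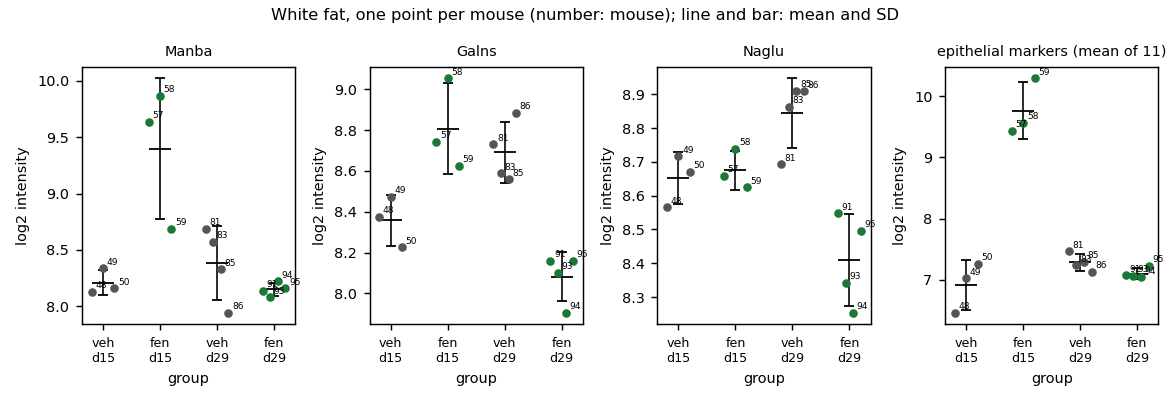
Log2 intensity (y axes) of Manba, Galns and Naglu and the mean of 11 epithelial markers in white fat, by group (x axis: vehicle in grey and fenretinide in green, days 15 and 29), with mouse numbers beside the points and lines with bars for the mean and SD (n = 3 on day 15 and 4 on day 29). Galns lies above vehicle on day 15 and below it on day 29, and the epithelial mean is 9.44 to 10.29 in the day-15 fenretinide mice against 6.46 to 7.26 in their vehicle mice.

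Many of the 40 genes differed between tissues. In the vehicle mice of the troglitazone study, whose brown fat and liver were both profiled (10 arrays of each), 16 of 40 genes were higher in brown fat (31.1% of all genes) and 16 lower (43.3%). Whether the arrays of the tissues were normalized together is not given in the sources used here. Without the brown fat of mice 42 and 82 the counts were 17 and 17. The shares of all genes given above belong to the fit with all libraries.

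Genes higher in brown fat included 3 of the 7 genes of lipid breakdown, activators and sterol exit, of which 2 were lower. Of the 11 cathepsins, peptidases and a thioesterase 6 were higher and 4 lower. Npc2 was 13.74 to 14.23 in brown fat (median 13.96) and 12.09 to 12.71 in liver (median 12.50), a difference of 1.48 ± 0.07. Ctsd was 13.17 to 13.66 (median 13.57) against 12.05 to 12.32 (median 12.21), a difference of 1.32 ± 0.06. The ranges of both genes were apart, as were those of 16 of the 40 genes and of 5701 of all 18193. Psap, the precursor of the saposins that assist sphingolipid hydrolases, was higher by 1.18 and Ctsk, a collagen-degrading cathepsin, by 1.28. Of the glycosaminoglycan enzymes Ids was 10.52 to 11.85 in brown fat (median 10.69) and 9.33 to 9.94 in liver (median 9.73), a difference of 1.09 ± 0.13 (adjusted p = 2.25e-07). Arsb (0.60), Idua (0.31) and Hexa (0.25) were higher as well, and Tfeb was higher by 0.39. Without the brown fat of mice 42 and 82 the highest Ids value in brown fat was 10.75 and the difference 0.97 ± 0.07.

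Genes higher in liver were led by Ctsh, an aminopeptidase among the cathepsins. Ctsh was 7.99 to 11.23 in brown fat (median 9.48) and 12.69 to 13.18 in liver (median 12.96), a difference of −3.64 ± 0.26. The upper end in brown fat, 11.23, was far from the median and still below every liver. Naglu was 7.27 to 8.61 in brown fat (median 7.62) and 8.92 to 9.57 in liver (median 9.31), without overlap, a difference of −1.63 ± 0.13 (adjusted p = 4.84e-10). Galns was 6.71 to 8.67 (median 7.16) against 8.05 to 8.58 (median 8.37), a difference of −1.11 ± 0.17. Man2b1 differed by −1.64, Npc1 by −1.16, Lamp2 by −1.06, Neu1 by −1.05, Ctsa by −0.96 and Hgsnat by −0.31. The enzymes of one pathway thus lay on both sides: among the 10 glycosaminoglycan enzymes 4 were higher in brown fat, 3 lower and 3 (Gusb, Glb1 and Sgsh) not called. Without the brown fat of mice 42 and 82 Gusb was lower as well (−0.36 ± 0.10, adjusted p = 0.00445). Without these libraries the highest brown fat values were 9.67 for Ctsh and 7.39 for Galns, and Galns differed by −1.30 ± 0.09 without overlap. With all libraries Lamp1 differed by −0.02 ± 0.04 (adjusted p = 0.720).

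White fat came from another study, so its levels are given without a test. Ordered by the mean of vehicle mice, without brown fat of mice 42 and 82, 21 of 40 genes were highest in white fat, 12 of these (30% of the 40) with no overlap with the next tissue. Over all genes 29.7% were highest in white fat, and 10.6% were so without overlap. Liver was the highest tissue for 12 genes (30%, all genes 49.7%), 5 of them without overlap (12.5%, all genes 11.2%). Brown fat was the highest for 7 (17.5%, all genes 20.7%), 4 of them without overlap (10%, all genes 6.01%). Ids was 11.01 to 11.75 in white fat (median 11.60), above both other tissues without these 2 brown fat libraries. White fat of vehicle mice 85 and 86, which carried other tissues' genes, was kept in this order. Without it Ids was 11.52 to 11.75 in white fat. Ctsc, which activates granule proteases, was 12.42 to 13.04 and Laptm5 10.49 to 11.07 in white fat, and their means were 10.33 and 8.70 in brown fat and 11.33 and 8.12 in liver. Lipa, the acid lipase, and Npc1 went the other way, with white fat minus liver at −1.41 and −1.63 in the mean. Neighbours in this order often overlapped, as for Galns, 8.23 to 8.89 in white fat with liver next.

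**Figure D5:**
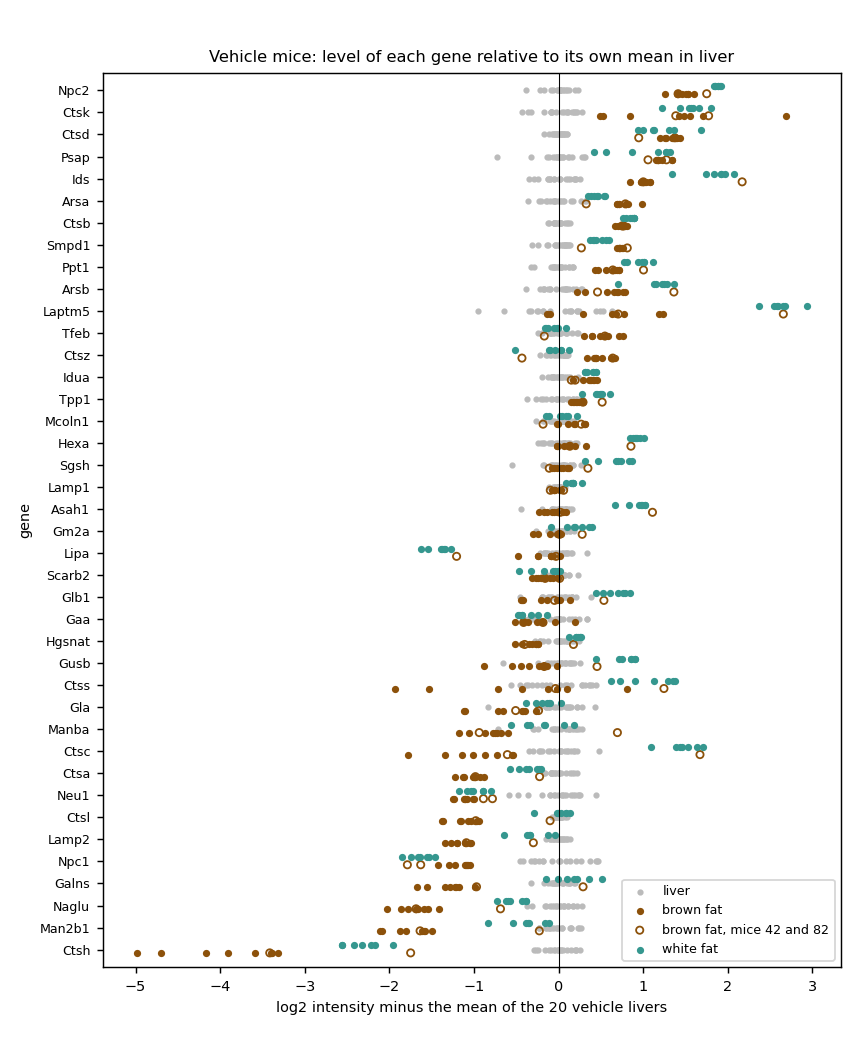
Log2 intensity of each of the 40 genes (y axis) in vehicle mice, relative to that gene's own mean over the 20 vehicle livers (x axis, log2 units), with a point per mouse for liver (grey), brown fat (brown; open circles for mice 42 and 82) and white fat (green). Ctsh lies lowest in brown fat relative to liver and Npc2 highest, and the brown fat libraries of mice 42 and 82 are drawn apart.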

How the data were processed

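RNA of white fat, brown fat and liver was measured on 74 Affymetrix mouse arrays, 1 per mouse and tissue. The authors deposited linear intensity per probe set after RMA, per the submitters' processing notes; the sources used here do not say which arrays were summarized together and hold no detection calls. Per the labels' protocols, Trizol was used for total RNA and the cRNA carried biotin. The deposited intensity ran from 7.44 to 39426, and log2 of it was taken here before any test. Of 45101 probe sets 34945 had 1 gene symbol in the platform annotation, 932 several, 9160 none, and 64 were controls. For each of 18193 genes the single-symbol probe set with the highest mean was used. No value column was left unused.

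Groups came from the labels; mouse numbers give distinct animals within a group, and no arrays were identical. Tests used lmFit and eBayes of limma 3.58.1 (R 4.3.3), with 1 mean per group, within each tissue and study, and p-values were adjusted by Benjamini-Hochberg over all genes, with a call below 0.05 and no filter. The number of arrays limits the precision. The fit was tested on simulated data. Tables and figures used Python 3.11.15, pandas 2.3.3, numpy 2.4.6 and matplotlib 3.10.9.

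The members and lists were chosen with earlier results of these data known. Values per array are given for 13 fixed genes in Elmiron livers, for called members elsewhere and for genes said to be chosen after their values were seen. Up to 3 called genes of a list are named, except that all 6 called epithelial markers are. Levels of different probe sets cannot be compared, so tissue levels are given as differences within a gene. Alternatives were quantile normalization or median centring, a filter that dropped the dimmer 50% of genes, the mean of a gene's probe sets, trended and robust eBayes, the 2 groups alone, the other study's vehicle livers, a block for the mouse, and each array left out in turn. Leaving out libraries with another tissue's genes, and the test of the fenretinide effect between days, were added after the data were seen.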

Additional observations from a re-analysis of the deposited data

Results flagged for a closer look

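Of 92 groups of 4 or 5 mice examined for genes with values per mouse, 3 had 1 mouse far from the rest by Dixon's criterion, which chance gives in about 1 group in 20. Ctss in day-15 vehicle livers of the Elmiron study was 9.96 in mouse 41, against 10.38 to 10.51 in the other 4. Tfeb in day-29 Elmiron livers was 9.72 in mouse 92, against 9.41 to 9.48 in the others. Laptm5 in day-29 vehicle livers of the Elmiron study was 7.17 in mouse 81, against 7.77 to 7.88 in the others. The fenretinide effect on Galns in white fat differed between days by −1.06 (limma, adjusted p = 0.00647), from above 0 on day 15 to below 0 on day 29. That value is of the brighter of 2 probe sets, and with their mean the difference was not called. White fat libraries of both days carried other tissues' genes, whose part in this difference was not tested.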

How the results depend on the processing

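Among the changes of named genes, 745 values under other settings kept their direction and side of the threshold, 44 turned sign, 19 lost the call and 12 gained one; the cause of each difference given here was not tested. In white fat on day 15, 9 of the 40 genes were called with median centring, 3 with the mean of a gene's probe sets (Laptm5, Manba and Npc2), 2 with trended and robust eBayes, 0 with the 2 groups alone, where the spread is estimated from fewer arrays, and 0 to 2 without each array in turn, against 1. In white fat on day 29, 6 were called without the dimmer genes, where fewer genes are tested, 3 with trended and robust eBayes (Galns, Naglu and Ppt1), 1 with the mean of a gene's probe sets, 0 with the 2 groups alone, 0 without the libraries carrying another tissue's genes, and 0 to 5 without each array, against 2. The day difference with fenretinide gave 0 with the mean of probe sets and 1 to 3 without each array, against 1. In brown fat on day 29, 1 was called without 3 libraries, and in Elmiron livers of day 15, 1 was called against the other study's vehicle livers, each against 0. Between brown fat and liver 32 were called with the mouse as a replicate block, the same as without it (same-numbered arrays are of the same mouse by the labels, 7 mice having both tissues, with a consensus correlation of 0.0060), and 30 to 35 without each array. The block was fitted for this comparison only. The share of all genes called under each alternative is not given here, so these counts are not read against it.

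Some changes turned sign. Naglu in white fat on day 15 was −0.080 with quantile normalization, −0.13 with median centring and −0.019 to 0.056 without each array. In Elmiron livers of day 15, Sgsh was 0.039 with the mean of probe sets and Arsb −0.010 against the other study's vehicle livers. In Elmiron livers of day 29 against those vehicle livers, Idua was −0.0029, Sgsh −0.12, Arsb −0.044, Tfeb −0.098, Ctss −0.020 and Laptm5 −0.26. On that day Ids was −0.016 with the mean of probe sets, Arsb −0.0065 and Hexa −0.0059 with quantile normalization, and Hexa −0.014 with median centring. Without each array, the day-15 Elmiron changes ran from −0.062 to 0.077 for Ids, −0.058 to 0.050 for Sgsh, −0.086 to 0.088 for Naglu, −0.0052 to 0.12 for Gusb, −0.028 to 0.13 for Glb1, −0.0027 to 0.089 for Hexa, −0.056 to 0.0067 for Tfeb, −0.0022 to 0.034 for Lamp1 and −0.0038 to 0.10 for Ctsa. On day 29 they ran from −0.036 to 0.043 for Hexa and from −0.013 to 0.015 for Lamp1. With 5 mice per group the median SE of a member's change with Elmiron was 0.10, so small changes could not be told from 0.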
